A study of Homo sapiens with 6 samples.

Results

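The blocks described here are the stretches of the human autosomes that lay in the B compartment in the contact maps of all 4 cancer cell lines of the study. They were chosen by their contacts. For each line and each arm of chromosomes 1 to 22, the first eigenvector of the correlation matrix of observed over expected (O/E) contacts between 200-kb blocks was taken, its sign was set so that blocks with more protein-coding genes were positive, and it was scaled to an SD of 1. A block below -0.5 in all 4 lines was called constant B. Of 12538 usable blocks, 3374 (26.9%, 674.8 Mb) were constant B. The controls were the 2900 blocks (23.1%, 580 Mb) above 0.5 in all 4 lines, called constant A.

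The study profiled chromatin folding by in situ Hi-C, in which DNA that lies close together in the nucleus is ligated and sequenced in pairs. The lines were SW480 and SNU-C1, both of colon cancer, HCC1954, of breast cancer, and OE33, of esophageal adenocarcinoma, and no treatment was given in the labels. For SW480 there were replicates 1 and 2 and an unnumbered map whose depth is close to their sum. The unnumbered map stands for the line here. The remaining lines had 1 map each. Differences between lines other than SW480 therefore have no replicate check.

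Chromosomes fold into compartments whose members contact each other more than they contact the other kind. The A compartment holds most active genes, while the B compartment is poor in genes, is largely transcribed at low levels, and overlaps the chromatin that lies against the nuclear lamina or the nucleolus. Inside both, topologically associating domains (TADs) are stretches with frequent internal contacts that end at insulated boundaries. Expression was not measured in these data, so "inactive" is used of these blocks only in the sense of their eigenvector sign.

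Depth within chromosomes, in read pairs between different 40-kb bins, was 128410882 for SW480 (63521808 and 64867412 in replicates 1 and 2), 111654971 for SNU-C1, 89456378 in HCC1954 and 86993603 in OE33. The SW480 maps held only 0.21% of their read pairs between chromosomes, against 14.4% to 35.9% in the other lines, and SW480 therefore enters no comparison between chromosomes. The unnumbered SW480 map also held 27958007 read pairs within bins, where the maps of the other lines held 0.

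The label of the blocks was checked against base composition, which the choice did not use directly. Gene counts set the sign of each arm, however. Constant B was lower in both gene density and GC content on each autosome, so this check is not independent of the sign rule. The eigenvector correlated positively with the GC content of blocks in 155 of 156 combinations of arm and line, with a median Pearson's r over the blocks of an arm of 0.66. The exception was 9p in HCC1954 (r = -0.09). Chromosome arms 20p and 21q in HCC1954 also had an r under 0.4, so 3 arms with 113 members did not follow GC closely in 1 line. Without them the log2 ratio of B-B over A-B contacts described below was 1.82 in SW480, 1.70 in SNU-C1, 1.56 for HCC1954 and 2.60 for OE33.

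The 2 constant B blocks with the lowest mean eigenvector are shown by the 300 bases at their centre, read from the reference genome (GRCh37, the hg19 build of the maps), with CpG dinucleotides in capitals, because GC and CpG content are the sequence features set against the compartments below.
constant B, chr12:19899851-19900150, plus strand: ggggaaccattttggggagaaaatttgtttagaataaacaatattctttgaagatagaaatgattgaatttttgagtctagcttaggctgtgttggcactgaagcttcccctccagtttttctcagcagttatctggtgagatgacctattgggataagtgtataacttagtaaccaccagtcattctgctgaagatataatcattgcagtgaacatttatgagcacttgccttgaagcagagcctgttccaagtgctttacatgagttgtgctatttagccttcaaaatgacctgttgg
constant B, chr15:55299851-55300150, plus strand: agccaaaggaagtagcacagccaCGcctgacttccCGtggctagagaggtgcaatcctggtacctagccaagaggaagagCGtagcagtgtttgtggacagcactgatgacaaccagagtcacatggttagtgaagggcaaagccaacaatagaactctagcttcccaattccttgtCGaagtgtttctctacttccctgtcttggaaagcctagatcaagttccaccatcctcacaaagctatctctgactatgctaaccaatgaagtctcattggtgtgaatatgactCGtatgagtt
The first of these windows has a GC content of 39.0% and no CpG, and it lies in a block of 12p with no protein-coding gene and a mean eigenvector of -1.74. The window of chromosome 15 has a GC content of 47.3% and 5 CpG in a block whose GC content is 38.4% and whose mean eigenvector is -1.73. A single window thus need not follow the composition of its block, and the averages over blocks are given next.

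Over whole blocks, GC content was 37.4% ± 2.75 in constant B (SD over 3374 blocks) and 44.9% ± 4.49 in constant A (SD over 2900 blocks), beside 40.9% ± 4.68 over all usable blocks. Of the constant B blocks, 83.8% lay below the median GC content of all usable blocks, against 13.5% of the constant A blocks. Constant B had the lower mean GC content on each of the 22 autosomes. The median CpG content, as observed over expected from the base counts, was 0.182 in constant B and 0.264 in constant A. The sites of MboI (GATC), the enzyme that cut the chromatin, were at a median of 2.27 per kb in constant B and 2.75 per kb in constant A. Median coverage of a bin, relative to all usable bins, was 0.863 in SW480, 0.955 in SNU-C1, 0.807 for HCC1954 and 0.864 for OE33 for constant B. It was 1.07, 0.945, 1.06 and 1.15 for constant A, so the members were covered less deeply than the controls in 3 of 4 lines. The part of GC content, restriction sites and coverage in the contact values was not tested.

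The eigenvector of the members, which chose them, is given as a description. Its median over members was -1.29 in SW480, -1.35 in SNU-C1, -1.32 for HCC1954 and -1.33 for OE33. The member nearest the threshold reached -0.5005 in its highest line, and the nearest block outside had -0.4998. In their highest line, 265 members lay between -0.6 and -0.5, and 226 blocks outside lay between -0.5 and -0.4. Of the usable blocks, 5338 (42.6%) were below -0.5 in no line, 1314 in 1 line, 1077 in 2 lines, 1435 in 3 lines and 3374 in all 4.

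Blocks chosen in 3 lines were then looked up in the line left out, which the choice of those blocks had not used. In SW480, 89.5% of the 3770 blocks chosen in the other lines were below -0.5 (exact 95% interval over blocks 88.5% to 90.5%), against 40.5% of all usable blocks. In SNU-C1 it was 92.4% of 3650 blocks, against 46.2% of all. In HCC1954 it was 84.6% of 3987 blocks, against 39.1% of all. In OE33 it was 95.7% of 3524 blocks, against 43.8% of all. Neighbouring blocks are not independent, so these intervals cover counting error only. At the opposite end, between 0.17% of the chosen blocks, in OE33, and 2.68%, in HCC1954, were above 0.5 in the line left out. The B state of these blocks was thus met again in each line, and HCC1954 had the lowest share.

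The SW480 replicates set the spread of a repeated map. Blocks chosen with replicate 1 and the other 3 lines were below -0.5 in replicate 2 in 98.8% of 3345 cases, against 39.8% of all usable blocks. With the replicates exchanged, the share was 98.7% of 3348 blocks, against 39.9% of all. The shares lost between lines were larger than those lost between the replicates. The choices were unlike, however, since the replicate check also required a block to pass in another map of the measured line. Only SW480 has replicates.

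Constant B blocks made up between 13.1% of the usable blocks of chromosome 13 and 37.5% of those of chromosome 11. The eigenvector of 13q in SNU-C1 followed gene counts weakly (r = 0.12, against 0.39 to 0.40 in the other lines) and GC content with an r of 0.42. Its part in the share of chromosome 13 was not tested. On chromosome 11, the short arm, with 79 of its 232 members, followed gene counts weakly in all 4 lines (r = 0.16 to 0.20) but GC content with an r of 0.68 to 0.73. Chromosomes 21 (37.3%), 18 (35.4%) and 16 (33.8%) followed chromosome 11. Constant A took 5.59% of chromosome 21, where 1 of the arms that followed GC weakly in HCC1954 lies, and 35.4% of chromosome 18 was constant B against 21.6% constant A. Within 5 Mb of the centromere gap, 27.8% of 672 usable blocks were constant B. Within 5 Mb of a chromosome end, 13.8% of 769 usable blocks were constant B and 33.4% were constant A. Chromosome ends were thus poorer in members than the 26.9% over all usable blocks, and the neighbourhood of centromeres was near it. These shares were not tested.

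**Figure D1:**
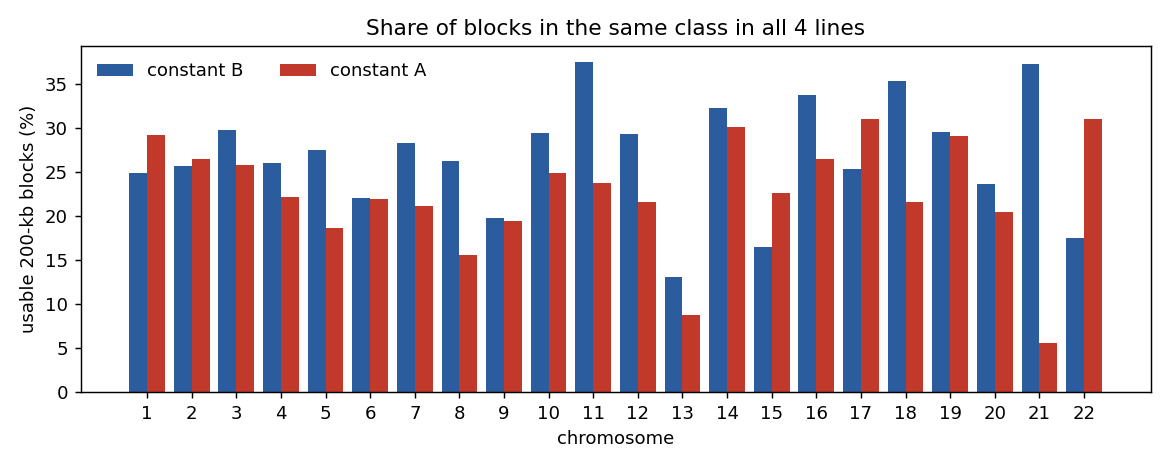
Percent of usable 200-kb blocks of each autosome that were constant B (blue bars) or constant A (red bars) in all 4 lines. Constant B ranges from 13.1% on chromosome 13 to 37.5% on chromosome 11, and chromosome 21 has the lowest constant A share, 5.59%.

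Members lay in 601 runs of neighbouring blocks with a median length of 0.6 Mb. Of these, 127 were single blocks and 243 were at least 1 Mb long, and the latter held 77.1% of the members. The longest run spanned 7.8 Mb of the long arm of chromosome 12 (chr12:80600001-88400000) and held 16 protein-coding genes, among them MYF5 and MYF6, regulators of muscle differentiation, and ALX1, a homeobox gene. Its mean eigenvector was -1.41 in SW480, -1.47 in SNU-C1, -1.13 for HCC1954 and -1.38 for OE33. The second, of 6.4 Mb (chr1:71000001-77400000), held 19 protein-coding genes, including NEGR1, a neural adhesion gene, LHX8, a homeobox gene, and ACADM, an enzyme of fatty acid oxidation. The third, of 6.2 Mb (chr13:53800001-60000000), held 6 genes, 5 of them copies of PRR20 and the other PCDH17, a protocadherin gene. The last 2 runs were 5.8 Mb each. One, on chromosome 4 (chr4:132800001-138600000), held only PCDH10, PABPC4L and PCDH18. The other, on chromosome 6 (chr6:64600001-70400000), held EYS, a photoreceptor gene, ADGRB3, an adhesion receptor gene of the brain, and 2 further genes. The weakest eigenvector of the 4 lines was that of HCC1954 in the run of chromosome 12, of SNU-C1 in that of chromosome 6 (-0.96), and of SW480 in those of chromosomes 13 (-1.14) and 4 (-1.26). The run of chromosome 13 was lowest in SNU-C1 (-1.94), whose eigenvector of that arm followed gene counts weakly. In the run of chromosome 1 the order of the lines depended on the SW480 map, which gave -1.42 unnumbered and -1.54 and -1.51 in replicates 1 and 2, beside -1.46 in HCC1954 and -1.47 in OE33.

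Among the 10 members with the lowest mean eigenvector, 7 held no protein-coding gene, which is near the 76.7% of all members. The other 3 were 1 block of 12p with PIK3C2G, a lipid kinase gene, and 2 blocks of 19p with the zinc finger genes ZNF14, ZNF506 and ZNF253 and with ZNF699, ZNF559, ZNF177 and ZNF266. The zinc finger blocks had GC contents of 43.4% and 42.3%, above the mean of the members. The extreme means rested largely on 1 line. In the block of chromosome 15 shown above the eigenvector was -2.35 in SNU-C1 and -1.45 to -1.68 in the other lines. In that of 12p it was -2.46 in HCC1954 and -1.45 to -1.54 in the others. Over all arms and lines the first eigenvector explained a median of 28.8% of the variance, and at least 9.74% (4q in HCC1954). It explained 10.8% on 15q in SNU-C1 and 11.9% on 21q in HCC1954. The study reports complex rearrangements of the chromosomes of these last arms in the same lines. The part of rearrangements in the eigenvectors and contact values was not tested.

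Within arms, contacts between members, summed over the autosomes, were frequent. These pairs were part of what chose the blocks, so their values are given with no test. Between 2 and 50 Mb, the O/E of pairs of constant B blocks (B-B) was 1.75 in SW480, 1.64 in SNU-C1, 1.76 for HCC1954 and 2.25 for OE33. That of pairs of constant A blocks (A-A) was 1.11, 0.993, 1.01 and 0.950 in the same order, and that of mixed pairs (A-B) 0.494, 0.503, 0.591 and 0.369. OE33 thus had the highest B-B and the lowest A-B value. By chromosome, the B-B O/E fell below 1 only on chromosome 22, which has 26 members. It was 0.996 there in SW480 and 0.937 in HCC1954, against 1.23 in SNU-C1 and 1.86 in OE33. The log2 ratio of B-B over A-B was 1.82 in SW480, 1.70 in SNU-C1, 1.57 for HCC1954 and 2.61 for OE33, with a mean of 1.92 ± 0.47 (SD, n = 4 lines). In SW480 it was 1.83 in replicate 1 and 1.82 in replicate 2, so the lines differed by more than these replicates did.

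B-B strength changed with distance. At 0.4 to 1 Mb, the B-B O/E averaged 1.18 ± 0.06 (SD, n = 4 lines). It was 1.59 ± 0.15 at 1 to 2 Mb, 1.79 ± 0.24 at 2 to 5 Mb, 1.81 ± 0.30 at 5 to 10 Mb, 1.86 ± 0.26 at 10 to 20 Mb, 1.99 ± 0.34 at 20 to 50 Mb and 1.96 ± 0.52 beyond 50 Mb. The largest rise between neighbouring classes was that from the first to the second in every line. OE33 went from 1.24 in the nearest class to 2.57 in the farthest, and SW480 from 1.10 to 2.02. SNU-C1 reached 1.72 at 20 to 50 Mb and then dropped to 1.30 beyond 50 Mb, where 57512 read pairs supported the value. HCC1954 moved between 1.69 and 1.79 from 2 to 50 Mb and was 1.95 beyond. The O/E of all block pairs of these arms also moved at large distances. At 2 to 5 Mb it lay between 0.9992 and 1.0003. Beyond 50 Mb it was 1.13 in SW480, 0.927 in SNU-C1, 1.24 for HCC1954 and 1.17 for OE33. The B-B values at these distances are not corrected for this.

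A-A contacts followed another course. In SW480 they had an O/E of 0.993 at 0.4 to 1 Mb, 0.810 at 1 to 2 Mb and 1.84 beyond 50 Mb. The log2 ratio of B-B over A-A was highest at 2 to 5 Mb, with a mean of 1.17 ± 0.28 (SD, n = 4 lines), and declined with distance to a mean of 0.10 ± 0.42 beyond 50 Mb. There it was 0.13 in SW480, -0.39 in SNU-C1, 0.02 for HCC1954 and 0.63 for OE33. Members thus exceeded controls in contact at a few Mb, and at the largest distances the lines lay on both sides of 0.

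**Figure D2:**
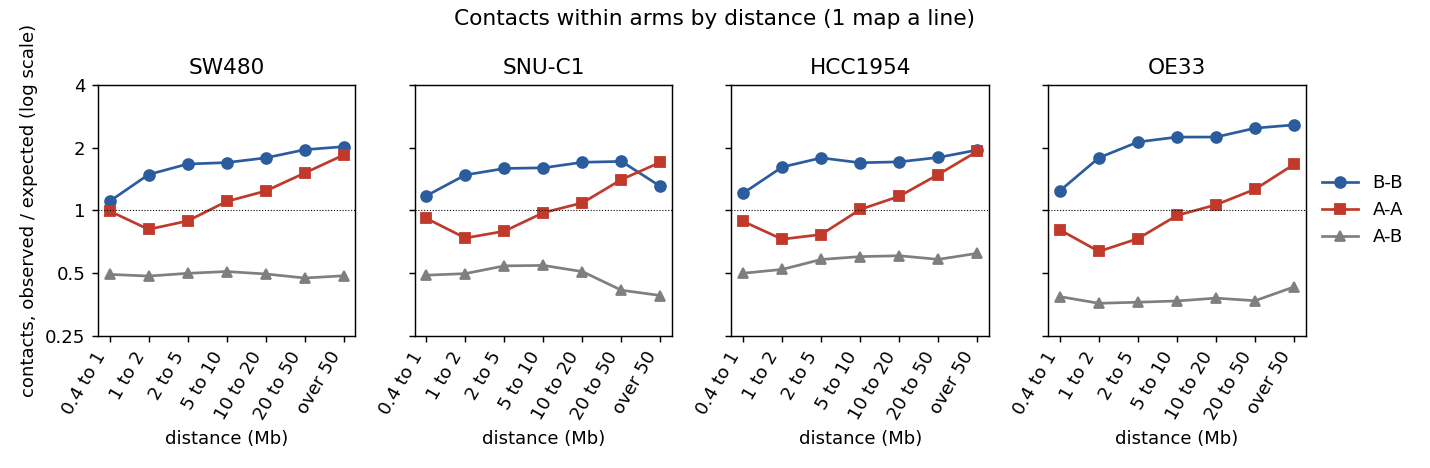
Observed over expected contacts (log scale) within chromosome arms by distance in Mb, 1 panel and 1 map a line, for pairs of constant B blocks (blue circles), pairs of constant A blocks (red squares) and mixed pairs (grey triangles). B-B stays above A-B at every distance in all 4 lines, and drops below A-A only beyond 50 Mb in SNU-C1 (1.30 against 1.70).

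When each line was measured on blocks chosen in the other 3 lines alone, the log2 ratio of B-B over A-B at 2 to 50 Mb was 1.55 in SW480, 1.46 in SNU-C1, 1.27 for HCC1954 and 2.41 for OE33. Its mean was 1.67 ± 0.51 (SD, n = 4 lines), and it was above 0 in 4 of 4 lines (exact two-sided sign-flip permutation test, p = 0.13, the smallest that this test allows with 4 lines).

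Pairs of blocks on opposite arms of a chromosome took no part in the choice, because each arm was treated alone. Such pairs came from the 17 autosomes with usable blocks on both arms, while those within arms came from all 22. Across the centromere, the B-B O/E was 1.08 in SW480, 1.38 in SNU-C1, 0.891 for HCC1954 and 1.38 for OE33. All usable pairs across centromeres had an O/E of 0.814, 0.949, 0.718 and 0.808 in the same order, so B-B lay above all pairs in each line. The A-B O/E was 0.399, 0.429, 0.40 and 0.350 in the same order. The log2 ratio of B-B over A-B averaged 1.56 ± 0.35 (SD, n = 4 lines) and was above 0 in 4 of 4 lines (exact two-sided sign-flip permutation test, p = 0.13, adjusted p = 0.25 over 4 tests). This is the smallest p that the exact test allows with 4 lines, so it does not pass 0.05. In SW480 the ratio was 1.44 in replicate 1 and 1.42 in replicate 2.

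Members were not the strongest contacts across centromeres. The A-A O/E was 1.52 in SW480, 1.61 in SNU-C1, 1.30 for HCC1954 and 1.30 for OE33. B-B was lower than A-A in 3 of 4 lines, with log2 ratios of -0.50 in SW480, -0.22 in SNU-C1, -0.54 for HCC1954 and 0.09 for OE33. The mean was -0.29 ± 0.29 (SD, n = 4 lines; exact two-sided sign-flip permutation test, p = 0.25, adjusted p = 0.25). Within arms at 2 to 50 Mb the same ratio had been positive in every line, with a mean of 0.86 ± 0.26 (SD, n = 4 lines). Pairs across centromeres were taken at all distances, however, and were not matched in distance or in chromosomes to those within arms. Within arms the mean was 0.48 ± 0.33 at 20 to 50 Mb and 0.10 ± 0.42 beyond 50 Mb.

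Between chromosomes, the expected value was the mean of the same chromosome pair. The B-B O/E was 1.23 in SNU-C1, 0.987 for HCC1954 and 0.993 for OE33, from 1293913, 991091 and 2192215 read pairs. The A-B O/E was 0.577, 0.628 and 0.757. B-B was above A-B in 231 of 231 chromosome pairs in SNU-C1, 226 for HCC1954 and 209 for OE33. It was above its expected value in fewer pairs, 206, 62 and 87 in the same order. The log2 ratio was 1.09 in SNU-C1, 0.65 for HCC1954 and 0.39 for OE33, with a mean of 0.71 ± 0.35 (SD, n = 3 lines; exact two-sided sign-flip permutation test, p = 0.25, adjusted p = 0.25, where this test allows no p below 0.25 with 3 lines). OE33, which had the highest ratio within arms and across centromeres, had the lowest between chromosomes, and its map held the largest share of read pairs between chromosomes (35.9%). The part of that share in the ratio was not tested.

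Contacts of members with members of other chromosomes were weaker than those among controls. The A-A O/E was 1.75 in SNU-C1, 1.85 for HCC1954 and 1.75 for OE33. The log2 ratio of B-B over A-A was -0.52 in SNU-C1, -0.91 for HCC1954 and -0.82 for OE33, with a mean of -0.75 ± 0.20 (SD, n = 3 lines; exact two-sided sign-flip permutation test, p = 0.25, adjusted p = 0.25). B-B exceeded A-A in 1 of 231 chromosome pairs in SNU-C1, 11 for HCC1954 and 4 for OE33.

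**Figure D3:**
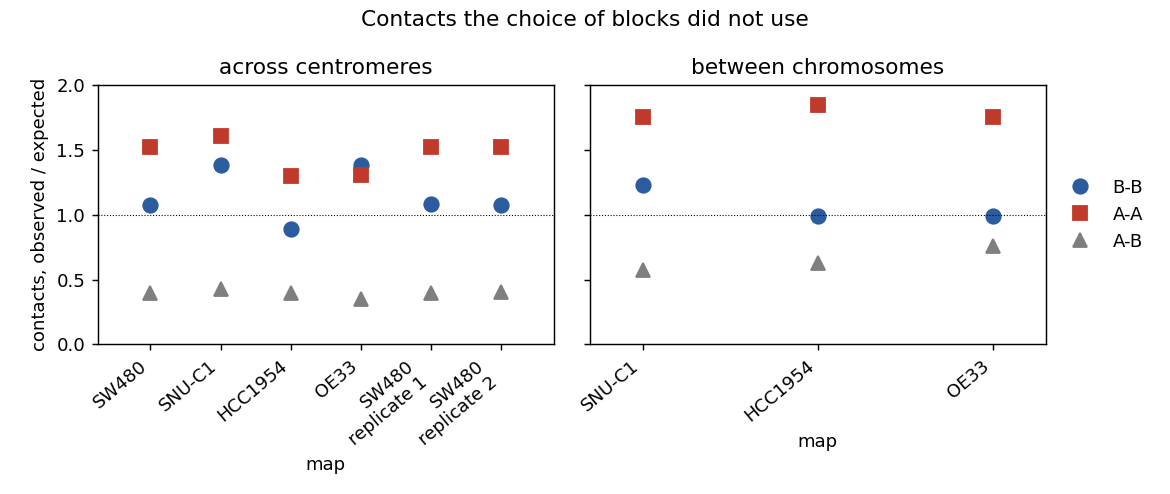
Observed over expected contacts (linear axis from 0) for B-B (blue circles), A-A (red squares) and A-B (grey triangles) pairs on opposite arms of a chromosome (left, 4 lines and both SW480 replicates) and on different chromosomes (right, 3 lines). A-B is lowest in every map, and A-A is highest in every map except OE33 across centromeres (1.30 against 1.38 for B-B).

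Members differed among themselves by gene content. The 2589 members without a protein-coding gene had an O/E of 1.08 ± 0.14 (SD, n = 3 lines) with members of other chromosomes and of 0.625 ± 0.093 with constant A blocks there. In the 165 members with 3 or more genes the values were 0.972 ± 0.117 and 0.861 ± 0.10. Contact with constant A was thus higher in the gene-richer members in each of the 3 lines (0.762 against 0.551 in SNU-C1, 0.857 against 0.596 in HCC1954 and 0.963 against 0.730 in OE33). The 71 members with a zinc finger gene stood at the end of this range. Their O/E with other members was 0.922 in SNU-C1, 0.788 for HCC1954 and 0.817 for OE33, and that with constant A blocks was 0.772, 0.950 and 1.06. In HCC1954 and OE33 these blocks thus contacted constant A more than constant B between chromosomes, against their label. The 49 members with an olfactory receptor gene had 1.35, 1.03 and 1.01 with members and 0.695, 0.703 and 0.828 with constant A.

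The insulation score of a 40-kb bin is the log2 of the mean contact across it within a window, 1 Mb here, over the mean of its chromosome, so a low score marks an insulated bin. These contacts lie within arms and are described with no test. Constant B bins had a mean score of 0.09 in SW480, 0.13 in SNU-C1, 0.17 for HCC1954 and 0.23 for OE33. Constant A bins had -0.19, -0.29, -0.33 and -0.49. The difference averaged 0.48 ± 0.18 (SD, n = 4 lines). With a 480-kb window it averaged 0.18 ± 0.17 (SD, n = 4 lines) and was 0.16 in SNU-C1, 0.23 for HCC1954 and 0.37 for OE33, but -0.03 in SW480, so the direction in SW480 depended on the window. The SW480 map also differs from the others in the kinds of pairs it holds, and the part of this was not tested. SW480 replicates 1 and 2 gave mean scores of 0.09 each in constant B with the 1-Mb window.

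Boundaries, taken as local minima of this score with a strength of at least 0.1, were sparser in members. Constant B held 484 boundaries in SW480, 545 in SNU-C1, 482 for HCC1954 and 412 for OE33. This is 0.746, 0.840, 0.742 and 0.635 per Mb, a mean of 0.741 ± 0.084 (SD, n = 4 lines), beside 1.33 ± 0.04 in constant A and 1.02 ± 0.05 over all usable blocks. With the 480-kb window the means were 1.07 ± 0.08 in constant B and 1.41 ± 0.01 in constant A. Of the 484 boundaries of SW480 in members, 36.6% had a boundary within 1 bin in all 3 other lines, against 49.7% of its 720 boundaries in constant A. Between the SW480 replicates the shares were 94.0% in constant B and 95.4% in constant A. Sharing was computed for the boundaries of SW480 in these classes alone, with no share over all its boundaries, and these differences were not tested. The denser boundaries of constant A leave more room for a match within 1 bin, which was not corrected for.

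Boundary density varied with gene content. Members without a protein-coding gene had 0.585 ± 0.087 boundaries per Mb (SD, n = 4 lines), those with 1 or 2 genes 1.30 ± 0.09 and those with 3 or more 1.18 ± 0.16. The insulation score was 0.21 ± 0.07 in members without a gene and -0.02 ± 0.05 in those with 1 or 2. Blocks with 1 or 2 genes thus came near the boundary density of constant A. Members with an olfactory receptor gene had 0.597 ± 0.279 per Mb, close to members with no gene. Those with a zinc finger gene had 0.502 ± 0.201 and those on chromosome 19 had 0.437 ± 0.138, which overlap in their spread over lines with members without a gene. These are few blocks, 71 and 73, and with the best of 3 eigenvectors described below only 7 blocks of chromosome 19 were constant B.

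Runs of at least 1 Mb had 486 edges, of which 440 to 472 had a score at the distances quoted here. The mean insulation score was lowest at the edge bin in SW480 (-0.22), SNU-C1 (-0.16) and HCC1954 (-0.19), and 40 kb outside it in OE33 (-0.19). At 480 kb inside, which is no further than the middle of the shortest of these runs, it was 0.15, 0.20, 0.23 and 0.29 in the order SW480, SNU-C1, HCC1954 and OE33. At 1 Mb outside, where a bin can belong to another run, it was -0.07, -0.06, -0.06 and -0.11. On average the edges were more insulated than the bins at both of these distances in every line. The edges were set by eigenvectors of the same contacts within arms, so a dip there is partly fixed by the choice. It was not tested. In OE33 the score at the edge bin itself was -0.18.

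**Figure D4:**
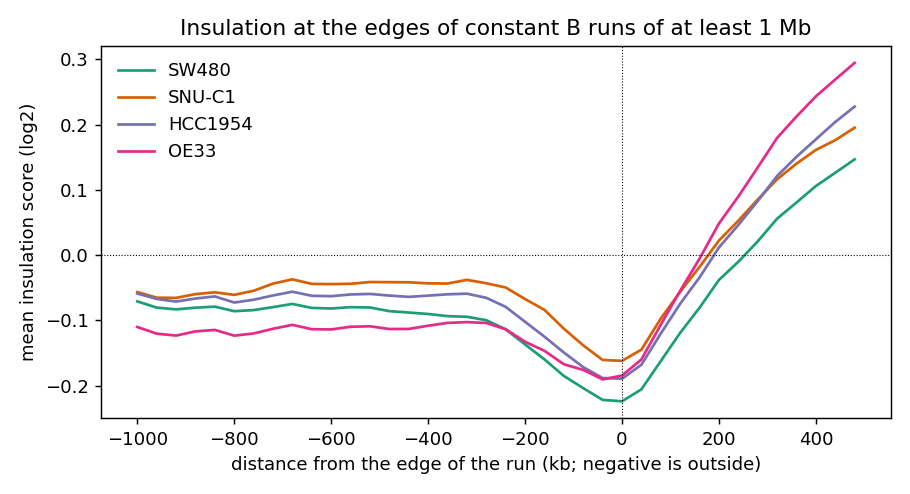
Mean insulation score (log2, 1-Mb window) by distance in kb from the edges of constant B runs of at least 1 Mb, with negative distances outside the run, 1 curve a line, over the edges with a score at each distance (464 of 486 at the edge bin). All 4 curves have their minimum at the edge or 40 kb outside it and rise inside the run to between 0.15 and 0.29 at 480 kb.

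Gene counts set the sign of the eigenvector of each arm, so the gene density of members is partly fixed by the choice and is given with no test. Members held 1605 protein-coding genes, counted by their start, or 2.38 per Mb (exact 95% Poisson interval 2.26 to 2.50). Constant A held 8474, or 14.6 per Mb, and all usable blocks 17623, or 7.03 per Mb. Of the members, 76.7% held no protein-coding gene start, against 12.6% of constant A blocks. Genes for long noncoding RNAs, which took no part in the choice, were at 3.89 per Mb in constant B and 9.37 per Mb in constant A. Processed pseudogenes were at 2.45 and 4.29 per Mb. On chromosome 19, members had 20.5 protein-coding genes per Mb, above the 14.6 per Mb of constant A over all autosomes and below the 34.4 per Mb of constant A on that chromosome.

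Of all 17623 protein-coding genes in usable blocks, 9.11% started in constant B and 48.1% in constant A, and the gene families below are read against these shares. Shares above that of all genes were found for olfactory receptors, GABA-A and glutamate receptors, neural adhesion genes and cadherins, while bitter taste receptors, also a sensory family, had 0 of 24 genes in constant B. Of 361 olfactory receptor genes, which encode the odorant receptors of the nose, 267 (74.0%) lay in constant B and 8 in constant A, in 49 member blocks on 8 chromosomes. The 3 in the blocks with the lowest mean eigenvector were OR13C2, OR13C3 and OR13C4, which share 1 block of chromosome 9 with an eigenvector of -1.51 in SW480, -1.72 in SNU-C1, -1.74 for HCC1954 and -1.48 for OE33. Of 31 genes for GABA-A and ionotropic glutamate receptors, the ion channels of synapses, 16 (51.6%) were in constant B. GABRA5 and GABRG3, of the GABA-A receptors, start in neighbouring member blocks of chromosome 15 with mean eigenvectors of -1.53 in both. In both blocks the lowest line was SNU-C1 (-1.88 and -1.91), whose 15q eigenvector is described above. Of 15 neural adhesion genes (contactins and the CNTNAP, SLITRK and LRRTM families), 10 were in constant B, among them LRRTM3 (-1.42), SLITRK3 (-1.39) and CNTNAP4 (-1.36). Of 85 cadherins and protocadherins, 19 (22.4%) were in constant B, led by PCDH20 (-1.52), PCDH17 (-1.52) and CDH10 (-1.47). For PCDH20 and PCDH17, both on 13q, the lowest line was SNU-C1 (-2.08 and -1.98), whose 13q eigenvector followed gene counts weakly.

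Other families depended on which eigenvector of an arm was used. Of 455 numbered zinc finger genes, 208 (45.7%) started in constant B, mostly in gene-rich blocks such as that of ZNF14, ZNF253 and ZNF506 on 19p, with an eigenvector of -1.55 in SW480, -1.79 in SNU-C1, -2.10 for HCC1954 and -1.44 for OE33. When the eigenvector most correlated with gene counts among the first 3 was used in place of the first, 22 (4.84%) were in constant B, and chromosome 19 went from 73 constant B blocks to 7. The genes of these families are part of those counts, and the rank taken differed between lines on both arms of chromosome 19. The first eigenvector there followed GC content with an r of 0.70 to 0.87 over arms and lines. The change therefore does not decide which label is right. Olfactory receptors went from 74.0% to 54.6% (197 genes) under the same change, and keratin-associated proteins, which build the hair shaft, from 32 of 89 genes to 0. The 32 lay in 4 blocks of 21q, an arm that followed GC weakly in HCC1954 (r = 0.38), and KRTAP13-4, KRTAP15-1 and KRTAP19-1 share the lowest of them. The counts of GABA-A and glutamate receptors (15), cadherins (19) and neural adhesion genes (10) changed by at most 1.

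Families of genes that every cell uses had lower shares in members than the 9.11% of all protein-coding genes. In the lists of 28 to 34 genes the counts are too small to set them apart from that share. Constant B held 1 of 75 genes for cytosolic ribosomal proteins, 2 of 74 for mitochondrial ribosomal proteins, 1 of 34 for proteasome subunits, 1 of 28 for RNA polymerase subunits, 0 of 51 for translation initiation factors, 1 of 29 for replication factors and 0 of 76 for histones. The share of these families in constant A ran from 52.9% for the proteasome to 78.4% for initiation factors, beside 48.1% of all protein-coding genes. Genes of a family can share a block, as the histone genes H1-3 and H2AC8 do, so these counts are not counts of separate regions. The ribosomal gene in constant B was RPL10L, a copy known for its use in the testis, in a block with a mean eigenvector of -1.26. The other exceptions were MRPL39 (-1.46), MRPL50 (-1.30), PSMD7 (-1.06), POLR1F (-1.15) and ORC5 (-0.79), of which MRPL39 lies on 21q. Among those with the highest mean eigenvector in constant A were RPL3 (1.44), MRPS10 (1.57), POLR2F and EIF3L (1.55 in a shared block), PSMD3 (1.28) and MCM7 (1.21). UDP-glucuronosyltransferases, which conjugate bile pigments and drugs, had 0 of 16 genes in constant B and 9 in constant A, where UGT1A7, UGT1A8 and UGT1A10 share a block. These UGT1A entries overlap and have the same end, so the 9 are not all separate regions. The 24 bitter taste receptor genes and the 17 type I interferon genes were not in constant A either, and the interferon genes lie on 9p, where HCC1954 did not follow GC.

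**Figure D5:**
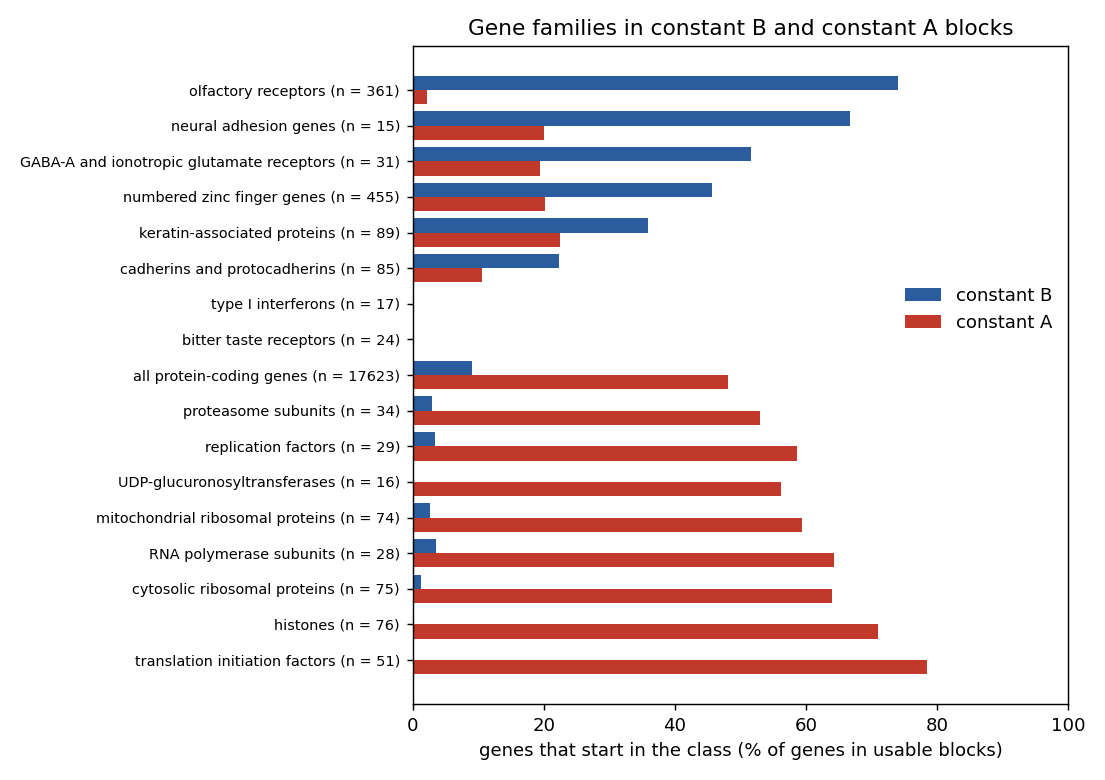
Percent of the protein-coding genes of each family in usable blocks (n beside the name) that start in constant B (blue bars) or constant A (red bars) blocks. Olfactory receptors are at 74.0% in constant B and all protein-coding genes at 9.11%, while cytosolic ribosomal, histone and initiation factor genes are at 1.33% or less. With the best of 3 eigenvectors zinc finger genes went to 4.84% and keratin-associated proteins to 0.

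The longest genes were often in members. Of 302 protein-coding genes of 500 kb or more, 122 (40.4%) started in constant B and 29 (9.60%) in constant A. The share in constant B did not follow length below that size. It was 11.4% of 4199 genes under 10 kb, 7.15% of 7178 genes of 10 to 50 kb, 6.17% of 2854 genes of 50 to 100 kb and 10.3% of 3090 genes of 100 to 500 kb. The median gene length was 28.8 kb in constant B, 25.4 kb in constant A and 29.5 kb over all usable blocks. Of the 10 longest autosomal genes, 9 had all or most of their usable blocks in constant B. RBFOX1, a neural splicing factor gene of 2.47 Mb, had 12 of 12 usable blocks in constant B, with a mean eigenvector of -1.19 in SW480, -1.34 in SNU-C1, -1.25 for HCC1954 and -1.25 for OE33. DLG2, a synaptic scaffold gene, had 12 of 12, LRP1B, a lipoprotein receptor gene, 11 of 11, and CTNNA3, an alpha-catenin gene, and PCDH15, a protocadherin gene of the inner ear, 10 of 10 each. CNTNAP2 had 11 of 12, EYS 10 of 11, MACROD2, on 20p, 9 of 11 and CSMD1 3 of 3, since only 3 of its 12 blocks were usable. PTPRD, a receptor phosphatase gene on 9p, had 0 of 13, with mean eigenvectors of -1.16 in SW480, -0.98 in SNU-C1, -0.37 for HCC1954 and -1.20 for OE33. HCC1954, the line whose 9p eigenvector did not follow GC, was the 1 line above the threshold there.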

How the data were processed

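The authors used MboI for in situ Hi-C. BWA-MEM placed the reads on hg19, Picard removed duplicates, and in-house pipelines made 40-kb maps with iterative correction. For these tools, versions were not given in the sources used here. Deposited values are a signal, the corrected contact frequency of each bin pair, and whole read pairs were recovered from it with fitted bin factors (beyond 5 Mb within chromosomes, 99.87% to 100% of values were within 0.02 of a whole number). Bins below 0.25 of the median coverage in a line were dropped, a block needed 3 usable bins of 5, and arms under 20 blocks were left out, which left 39 arms and 62333 bins. The expected contact at a distance was the mean over all autosomes, smoothed by 10% beyond 5 Mb. Boundaries used a 200-kb delta.

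Members, gene lists and tests were chosen with earlier results of these data known. Genes came from GENCODE 44 lifted to GRCh37. Named genes are those of the 5 longest runs, of the 10 lowest members, the 3 most extreme per list and the 10 longest, and a few of these, with the sequences of constant A blocks, are not reported here. The sample is the line (exact sign-flip tests, Benjamini-Hochberg over 4). The study calls its Hi-C replicates biological, and neither it nor the labels say whether those of SW480 were separate cultures. Alternatives were threshold, block size, coverage minimum, expected value, eigenvector, near pairs, SW480 replicate, lines, window and gene counting. Scripts were tested on simulated data. Python 3.11.15, NumPy 2.4.6 and SciPy 1.17.1 were used.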

Additional observations from a re-analysis of the deposited data

Results flagged for a closer look

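Across centromeres, the log2 ratio of B-B over A-A contacts was positive in OE33 (0.0855) and negative in the other 3 lines (-0.54 to -0.22). This difference was not tested, since 3 of the 4 lines have 1 map each. Both SW480 replicates were negative (-0.50 each).

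Within arms beyond 50 Mb, the same ratio was negative in SNU-C1 (-0.39) and positive in the other 3 lines (0.02 to 0.63), and this difference was not tested either.

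With a 480-kb window, the insulation score of constant B minus that of constant A was negative in SW480 (-0.0311) and positive in the other 3 lines (0.16 to 0.37), again with no test of the difference.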

How the results depend on the processing

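Each of 10 results was recomputed under 10 to 16 alternatives, 144 values in all, and none changed sign in its mean over lines. The shares and densities among these results cannot be negative, so no change of sign was possible for them. The ratio of B-B over A-B within arms used the contacts that chose the blocks, so its sign was largely fixed too. Of the 144, 17 were counted as moved, which means by at least the spread between lines or outside the counting interval. The 4 tested ratios were counted by sign alone, so none of their values could be among the 17. One of them, B-B over A-B across centromeres, was 2.08 at a threshold of 1. This lay above the main 1.56 by more than its SD of 0.35 over lines. The exact tests could not pass 0.05 under any alternative, so they say nothing about stability. The share of constant B blocks (26.9%) was 31.8% and 16.1% at thresholds of 0.25 and 1, 28.8% with 400-kb blocks and 25.3% with a coverage minimum of 0.5. It was 30.05%, 29.1%, 31.9% and 28.5% without SW480, SNU-C1, HCC1954 and OE33, because fewer lines had to agree. At a threshold of 1, the log2 ratio of B-B over A-B within arms was 2.48, boundaries were at 0.656 per Mb and protein-coding genes at 2.01 per Mb. Gene density in members was 4.04 per Mb with all overlapping genes counted (18.04 in constant A), 2.51 with 400-kb blocks, 2.15 with a coverage minimum of 0.5 and 1.797 with the best of 3 eigenvectors. With the 480-kb window the insulation difference was 0.18 and boundaries in members were at 1.07 per Mb. Over all alternatives, the log2 ratio of B-B over A-B ranged from 1.35 to 2.08 across centromeres and from 0.52 to 0.94 between chromosomes, and that of B-B over A-A from -0.46 to -0.19 and from -0.92 to -0.67. One of these alternatives left out pairs between chromosomes with an O/E over 10 in any line, as 1-Mb block pairs (5045 of 3244026). With SW480 represented by replicate 1 or 2 alone, the share was 26.7%, and the log2 ratio of B-B over A-B was 1.93 within arms and 1.57 across centromeres. Leaving out 9p, 20p and 21q, and choosing blocks without the line measured, were added after seeing the data. Each tested ratio was formed within the map of a line, so the sign-flip tests compare classes within lines. Replicates could not be paired between lines, because only SW480 has replicate numbers. With 3 or 4 lines the exact sign-flip test cannot reach a p of 0.05.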
